A study of Homo sapiens with 9 samples.

Results

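The genes described here are those of the ATF4 stress response and of the amino acid supply that it controls. They are 37 genes taken by symbol from a list, out of 16199 genes with a count in at least 1 of 9 RNA-seq libraries of HaCaT cells. HaCaT is an immortalized line of human skin keratinocytes, and all cells were wild type and were treated after they had reached confluence. The untreated group was kept in serum-free medium, the EGF group received 10 nM epidermal growth factor for 24 h, and the bleogen pB1 group received 1 µM bleogen pB1, a plant-derived miniprotein that acts on the EGF receptor, for 24 h. Each group had 3 libraries. Nothing in the labels states that they came from separate cultures, so the p-values measure only the spread between these libraries. The comparisons ask how the agonist bleogen pB1 and the natural ligand EGF change the transcriptome of keratinocytes.

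ATF4 is a bZIP transcription factor whose protein is made when phosphorylation of the translation factor eIF2 slows translation in general, after amino acid shortage, endoplasmic reticulum (ER) stress, heme shortage or viral RNA. ATF4 with partners such as CEBPG or CEBPB binds an element in its target genes and raises transcripts for amino acid synthesis, amino acid import and redox balance. Under lasting stress it also raises DDIT3 (CHOP), TRIB3 and CHAC1, which are linked to growth arrest and cell death. In growing cells ATF4 is also raised through mTORC1, downstream of growth factor receptors. Because the control is largely at translation, the level of the ATF4 transcript is not a measure of the level of its protein.

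The element bound by ATF4 and a C/EBP partner was searched as TGATGNAAN, where N is any base, on both strands of RefSeq promoter windows on GRCh38.p14, each with 250 bases before and 50 after a start site. A window was present for 30 of the 37 members, and 10 of them (33.3%) held the element, against 290 of the 10169 tested genes with a window (2.85%). Members had 1.67 windows per gene and tested genes 1.47. The members were listed as known genes of the pathway, so this share describes the list and is no finding. Below is the element, in capitals, with 10 bases on each side on the strand of the gene. Shown are the 5 members that rose with EGF and held it, and HERPUD1. The latter holds the same letters, was called in no comparison and was picked after its values were seen.

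CEBPG: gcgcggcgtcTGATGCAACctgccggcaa

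CHAC1: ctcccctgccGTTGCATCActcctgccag

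HERPUD1: gacgcggcggGTTGCATCAgcccgtgccc

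MTHFD1L: ccgccggctcTGATGCAATcgcgccgggc

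ASNS: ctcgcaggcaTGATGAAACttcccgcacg

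SLC1A5: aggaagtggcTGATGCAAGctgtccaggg

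These stretches lie at chr19:33374061-33374089 on the plus strand for CEBPG, chr15:40953251-40953279 (plus) for CHAC1, chr16:56931955-56931983 (plus) for HERPUD1, chr6:150866347-150866375 (plus) for MTHFD1L, chr7:97872458-97872486 (minus) for ASNS and chr19:46784893-46784921 (minus) for SLC1A5. In GENCODE 44 the centers of the elements of CHAC1, HERPUD1 and ASNS lie upstream of the start of the MANE Select transcript, by 206, 173 and 64 bases. Those of CEBPG, MTHFD1L and SLC1A5 lie in an intron of that transcript, 366, 659 and 3687 bases after its start, before a further RefSeq start. In CHAC1 and HERPUD1 the match is on the opposite strand, where it reads as in CEBPG. The other members with a match were SLC7A1, SLC3A2, SLC1A4 and SLC38A1. Of the members that rose with EGF, 5 of the 12 with a window held the element (41.7%), and of the other members 5 of 18 (27.8%). One form of the ER stress element of the ATF6 and XBP1 branch was searched, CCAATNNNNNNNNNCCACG, and other forms were not. It was in none of the 50 windows of members and in 18 of the 14913 windows of tested genes (0.121%). At that share a match was hardly to be expected in 50 windows, so its absence is no finding. A match is a run of letters and not a site shown to be bound.

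The libraries held 20288417 to 21320994 expected counts. CPM are counts relative to library size, here with TMM factors of 0.9635 to 1.0238. Without these factors, 3 counts corresponded to 0.141 to 0.148 CPM. This floor covers counting error only. All 7 keratinocyte markers were present, with a summed level of 10316 to 11443 CPM in untreated, 10267 to 11909 CPM in bleogen pB1-treated and 8076 to 8491 CPM in EGF-treated libraries. KRT5 was the largest part of this sum, with 7236 to 8106 CPM in untreated and 3472 to 3712 CPM in EGF libraries. With EGF, 5 of the 7 had a log2 fold change above 0 and 2 below. KRT14 and TP63 were called higher, and KRT5 and CDH1 lower. The summed level of 6 fibroblast markers was 7.62 to 9.31 CPM in untreated, 6.08 to 9.17 CPM in bleogen pB1 and 1.25 to 2.00 CPM in EGF libraries, with COL1A2, PDGFRB and LUM under 1 CPM throughout. The 4 blood cell markers summed to 11.7 to 12.5, 10.2 to 11.6 and 18.98 to 21.04 CPM in the same order. Nearly all of this sum was CD68, and PTPRC, CD3E and HBB were under 1 CPM. Melanocyte and endothelial markers stayed at or under 1.58 CPM in sum, and TYR was at 0. Their part in the results below was not tested.

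Many members were strongly expressed before any treatment. On the FPKM scale, which corrects for gene length, the untreated levels of members ranged over the mean of the 3 libraries from 368 for SLC7A5 to 0.0333 for ALDH1L2. SLC7A5, the light chain of the LAT1 importer of large neutral amino acids, lay above 98.9% of the genes listed, and its heavy chain SLC3A2 had 168 FPKM. ATF4 itself stood next, at 267 to 281 FPKM in the 3 libraries, and did not overlap with SLC7A5 (355 to 386 FPKM) or with DDIT4 (171 to 187 FPKM). SLC3A2 overlapped with both DDIT4 and PHGDH, and all PHGDH values lay below those of DDIT4. Stress genes were spread over the order. DDIT4, TRIB3 (60.6 FPKM) and HERPUD1 (35.4 FPKM) stood higher. PPP1R15A (18.5 FPKM), DDIT3 (15.1 FPKM), SESN2 (11.1 FPKM), CHAC1 (6.04 FPKM) and STC2 (4.66 FPKM) were in the lower part. NUPR1, a small chromatin-bound stress protein, had 0.583 FPKM, and ALDH1L2, the mitochondrial formyl-tetrahydrofolate dehydrogenase, was close to the floor.

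Of the 37 members, 35 passed edgeR's count filter. NUPR1 and ALDH1L2 did not. NUPR1 had 7, 11 and 11 counts in the untreated, 0, 0 and 0 in the EGF and 5, 3 and 4 in the bleogen pB1 libraries. Its untreated mean was 0.468 CPM with TMM factors, and the mean floor of the EGF libraries was 0.144 CPM without them. ALDH1L2 had 2.06 to 10.0 counts per library. A member was called higher or lower when the adjusted p of edgeR was at most 0.05 and the absolute log2 fold change at least 0.5. In bulk RNA, fewer cells with a transcript and less transcript per cell cannot be told apart.

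EGF raised a large part of the set. With EGF, 14 of the 35 tested members rose and 0 fell, while 15.1% of all 12394 tested genes rose and 21.8% fell. The members that rose were STC2, CHAC1, MTHFD2, CEBPG, SLC7A11, PPP1R15A, CEBPB, SHMT2, XPOT, MTHFD1L, ASNS, PSAT1, TRIB3 and SLC1A5. At an adjusted p of at most 0.05 alone (edgeR), 24 members were higher and 6 lower, against 32.4% and 33.6% of all tested genes (66.1% in either direction). At an unadjusted p under 0.05 the same numbers, 24 and 6, were found, against 69.1% of all tested genes in either direction. DESeq2 called 15 members higher and 1 lower (NUPR1), against 1963 higher and 2659 lower of all 16199 genes. The median log2 fold change of the members was 0.41, with 26 above 0 and 9 below, against -0.01 over all tested genes. The median absolute change was 0.45 in members and 0.39 in all tested genes.

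Bleogen pB1 gave no rise and a few falls. With bleogen pB1, 0 of the 35 tested members rose and 4 fell (DDIT4, TRIB3, PCK2 and CTH), while 0.218% of all tested genes rose and 1.26% fell. At an adjusted p of at most 0.05 alone (edgeR), 0 members were higher and the same 4 lower, against 1.56% and 2.55% of all tested genes (4.11% in either direction). No member was higher at an unadjusted p under 0.05 in edgeR, and 12 were lower, while 22.2% of all tested genes were at that level in either direction. DESeq2 found SLC7A1 higher and 13 members lower at that level, against 16.0% of all genes, and called 0 members higher and 4 lower. The median log2 fold change of the members was -0.14, with 9 above 0 and 26 below, against -0.00 over all tested genes. Without bleogen pB1 replicate 1 that median was -0.06, with 12 above 0 and 24 below of 36 tested. Without bleogen pB1 replicate 3, only TRIB3 and PCK2 were called lower.

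**Figure D1:**
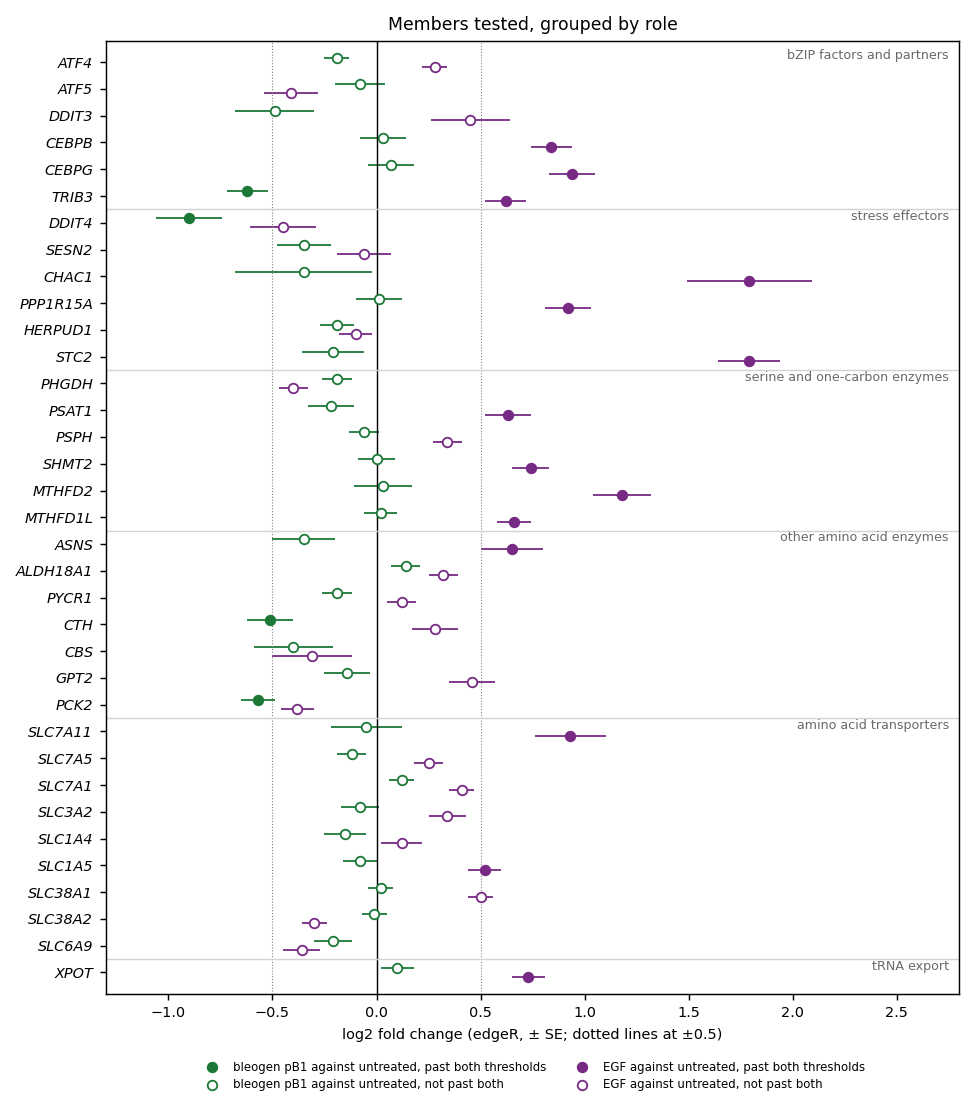
Log2 fold change (horizontal axis, edgeR, ± SE) of each of the 35 tested members under bleogen pB1 (green) and EGF (purple) against untreated, grouped by role, with filled symbols for members past both thresholds. The purple points reach 1.79 for CHAC1 and STC2 and 14 are filled to the right of 0, while the 4 filled green points, DDIT4, TRIB3, PCK2 and CTH, lie to the left of 0.

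The 2 treatments share their untreated libraries, so their fold changes are given side by side and their likeness is not tested. TRIB3 was lower with bleogen pB1 and higher with EGF. CTH was called lower with bleogen pB1 and had a higher level with EGF at an adjusted p of 0.040 (edgeR), below the fold limit. DDIT4 and PCK2 were called lower with bleogen pB1 and were also lower with EGF at an adjusted p of at most 0.05, below the fold limit. The other 13 members that rose with EGF passed neither threshold with bleogen pB1. The direct comparison of both treatments, at doses that differ, had 17 of 35 members higher with EGF and 0 lower, against 10.8% and 18.0% of all tested genes. These were CHAC1, STC2, TRIB3, MTHFD2, ASNS, SLC7A11, DDIT3, PPP1R15A, CEBPG, PSAT1, CEBPB, CTH, SHMT2, MTHFD1L, XPOT, SLC1A5 and GPT2. In that comparison 27 members were higher and 3 lower at an adjusted p of at most 0.05 alone, against 28.5% and 29.7% of all tested genes (58.2% in either direction), and DESeq2 called 1 lower (NUPR1). The median log2 difference of the members was 0.48.

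Among the bZIP factors and their partners, 3 of 6 tested rose with EGF (50%) and 1 fell with bleogen pB1 (16.7%). Of all tested genes 15.1% rose with EGF and 1.26% fell with bleogen pB1. ATF4 (gene 468, chr22:39519695-39522683) had 370, 366 and 379 CPM in untreated, 429, 479 and 442 CPM in EGF-treated and 324, 337 and 319 CPM in bleogen pB1-treated libraries. The 3 groups did not overlap, with EGF above and bleogen pB1 below the untreated libraries. The log2 fold change of ATF4 was 0.28 (SE 0.06, adjusted p = 0.00087, edgeR) with EGF, which is below the fold limit. With bleogen pB1 it was -0.19 (SE 0.06, adjusted p = 0.083, edgeR), which did not pass, and EGF exceeded bleogen pB1 by 0.46 (SE 0.06, adjusted p = 2.2e-05, edgeR).

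TRIB3 (gene 57761, chr20:362835-397559), a pseudokinase that is induced by ATF4 and holds back its activity, had 132, 132 and 149 CPM in untreated libraries. It had 174, 239 and 220 CPM with EGF and 83.8, 92.9 and 91.7 CPM with bleogen pB1. Every EGF library was above, and every bleogen pB1 library below, every untreated one. The log2 fold change of TRIB3 was 0.62 with EGF (SE 0.10, adjusted p = 0.00012, edgeR) and -0.62 with bleogen pB1 (SE 0.10, adjusted p = 0.0046). EGF exceeded bleogen pB1 by 1.24 on the log2 scale (SE 0.10, adjusted p = 6.5e-07, edgeR), which was higher in every EGF library.

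The dimer partners CEBPG and CEBPB rose with EGF, with log2 fold changes of 0.94 (SE 0.11, adjusted p = 1.1e-05) and 0.84 (SE 0.10, adjusted p = 1.4e-05, edgeR). With bleogen pB1 they changed by 0.07 (SE 0.11) and 0.03 (SE 0.11), which passed no test. DDIT3, the pro-apoptotic factor CHOP, had 12.7, 14.9 and 11.7 CPM in untreated, 12.9, 23.8 and 16.9 CPM in EGF and 8.70, 8.45 and 10.8 CPM in bleogen pB1 libraries. The EGF and untreated ranges of DDIT3 overlapped, and the bleogen pB1 libraries lay below the untreated ones. Its log2 fold change was 0.45 with EGF (SE 0.19, adjusted p = 0.049) and -0.49 with bleogen pB1 (SE 0.19, adjusted p = 0.16, edgeR), so that it was called in neither. With EGF the value was 0.64 without EGF replicate 1 and 0.55 without untreated replicate 2, where it passed the fold limit, and 0.20 without EGF replicate 2. The difference between EGF and bleogen pB1 was 0.94 (SE 0.19, adjusted p = 0.0011, edgeR). ATF5, a related factor, had a log2 fold change of -0.41 with EGF (SE 0.13, adjusted p = 0.012, edgeR), below the fold limit. ATF5 and NUP62 overlap on opposite strands by up to 305 exon bases, with mean counts of 462.3 and 3059.7. DDIT3 and MBD6 overlap likewise by up to 58 exon bases, with mean counts of 276.6 and 1980.2. Whether the counts used the strand is not given in the sources used here.

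**Figure D2:**
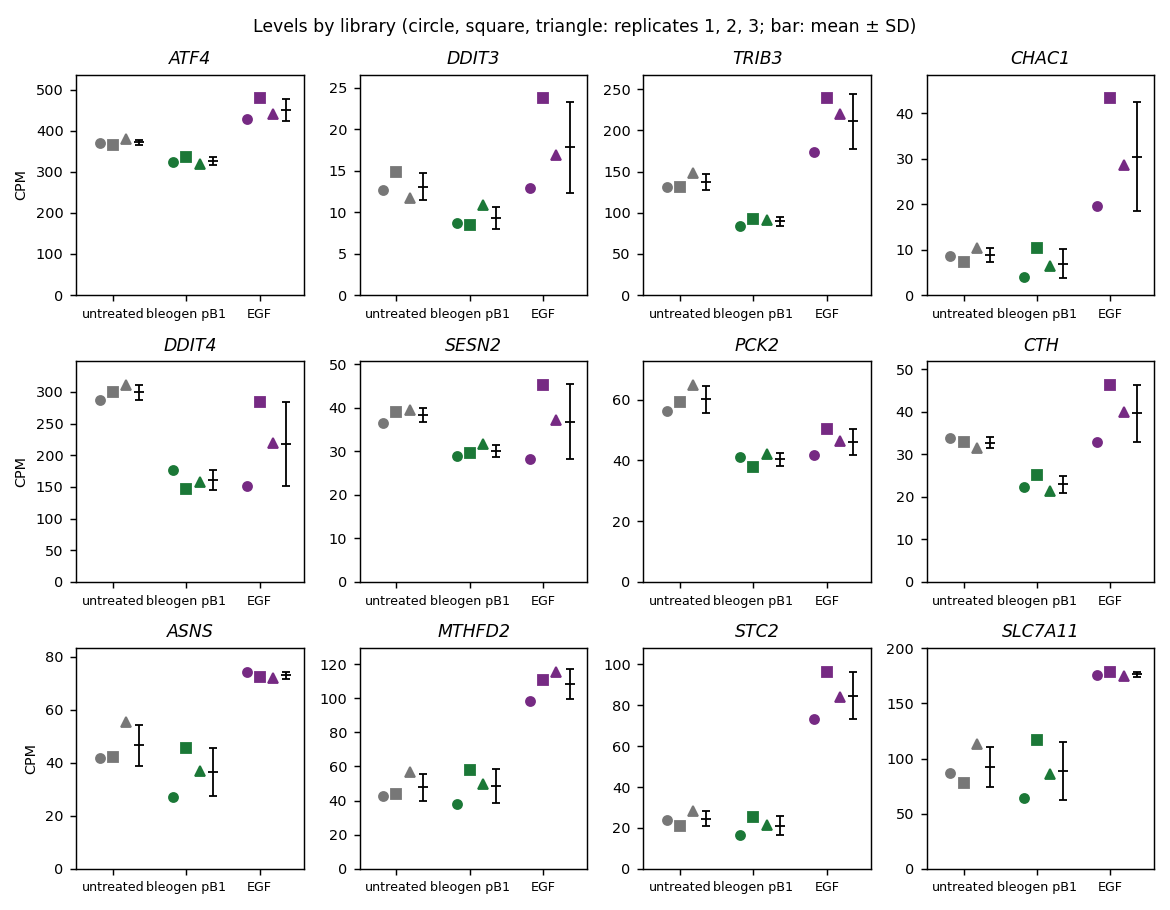
Level (CPM, vertical axes from 0) of 12 members in each of the 9 libraries, with circles, squares and triangles for replicates 1, 2 and 3 and a black bar for the mean ± SD of 3. TRIB3 and ATF4 show 3 separate groups, DDIT4 and PCK2 are lower in bleogen pB1 than in untreated libraries, and for ASNS, MTHFD2, STC2 and SLC7A11 every EGF library lies above all others.

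Of 6 stress effectors, 3 rose with EGF (CHAC1, STC2 and PPP1R15A), 50% against 15.1% of all tested genes. With bleogen pB1 DDIT4 fell (16.7%, against 1.26% of all tested genes). CHAC1 (gene 79094, chr15:40952962-40956512), an enzyme that degrades glutathione, had 8.68, 7.27 and 10.5 CPM in untreated libraries, 19.5, 43.4 and 28.6 CPM with EGF, and 4.06, 10.4 and 6.32 CPM with bleogen pB1. The EGF libraries lay above all others but spread widely, and the bleogen pB1 libraries overlapped with the untreated ones. CHAC1 rose 3.46-fold with EGF, a log2 fold change of 1.79 (SE 0.30, adjusted p = 0.00018, edgeR). With bleogen pB1 the value was -0.35 (SE 0.33, adjusted p = 0.57, edgeR).

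STC2 (gene 8614, chr5:173314723-173328447), a secreted glycoprotein induced by ER stress, had 23.9, 21.1 and 28.3 CPM in untreated, 73.4, 96.4 and 84.0 CPM in EGF and 16.6, 25.6 and 21.4 CPM in bleogen pB1 libraries. The EGF libraries were all above the rest. STC2 rose with EGF by a log2 fold change of 1.79 (SE 0.15, adjusted p = 4.8e-07, edgeR), while the value with bleogen pB1 was -0.21 (SE 0.15, adjusted p = 0.46). PPP1R15A (GADD34), which directs a phosphatase to eIF2 and so ends the block of translation, had a log2 fold change of 0.92 with EGF (SE 0.11, adjusted p = 1.1e-05, edgeR) and of 0.01 with bleogen pB1 (SE 0.11).

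DDIT4 (gene 54541, chr10:72273919-72276036), also called REDD1, inhibits mTORC1. Its level was 286.9, 300.0 and 311.0 CPM in untreated, 151, 284 and 220 CPM in EGF and 177, 147 and 158 CPM in bleogen pB1 libraries. All bleogen pB1 and all EGF libraries lay below the untreated ones, with EGF replicate 2 close to them. DDIT4 fell with bleogen pB1 to 0.537 times the untreated level, a log2 fold change of -0.90 (SE 0.16, adjusted p = 0.0083, edgeR). Without bleogen pB1 replicate 3 the call of DDIT4 was lost. With EGF the log2 fold change was -0.45 (SE 0.16, adjusted p = 0.023, edgeR), below the fold limit. It passed the limit in 6 of 17 alternatives. These were upper-quartile factors, no scaling factors, each limma setting and the fit without EGF replicate 2. SESN2, another inhibitor of mTORC1 and a sensor of leucine, had 36.5, 39.0 and 39.4 CPM in untreated, 28.1, 45.2 and 37.1 CPM in EGF and 28.8, 29.7 and 31.7 CPM in bleogen pB1 libraries. Its bleogen pB1 libraries were all lower than the untreated ones, but the log2 fold change of -0.35 (SE 0.13, adjusted p = 0.14, edgeR) did not pass. HERPUD1, which serves the degradation of ER proteins, was called in no comparison. Its log2 fold changes were -0.10 with EGF (SE 0.08, adjusted p = 0.29) and -0.19 with bleogen pB1 (SE 0.08, adjusted p = 0.19, edgeR).

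Of 6 tested enzymes of the path from serine to one-carbon units, 4 rose with EGF (66.7%, against 15.1% of all tested genes). With bleogen pB1 0 were called, against 1.48% of all tested genes. MTHFD2 (gene 10797, chr2:74186172-74217565), the mitochondrial methylene-tetrahydrofolate dehydrogenase, had 42.5, 43.7 and 56.9 CPM in untreated, 98.4, 111 and 116 CPM in EGF and 38.2, 57.8 and 49.8 CPM in bleogen pB1 libraries. The EGF libraries lay above the others, which overlapped among themselves. MTHFD2 rose with EGF by a log2 fold change of 1.18 (SE 0.14, adjusted p = 9.1e-06, edgeR), and the value with bleogen pB1 was 0.03 (SE 0.14). MTHFD2 and SLC4A5 overlap on opposite strands by up to 1324 exon bases, with mean counts of 1403.8 and 58.5.

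SHMT2, which takes a carbon unit from serine in mitochondria, MTHFD1L, which makes formate there, and PSAT1, the aminotransferase of serine synthesis, rose with EGF by 0.74 (SE 0.09), 0.66 (SE 0.08) and 0.63 (SE 0.11) on the log2 scale. With bleogen pB1 their log2 fold changes were -0.00, 0.02 and -0.22, of which none passed. PHGDH, the enzyme of the first step of serine synthesis, went the other way. Its levels were 300.4, 312.4 and 322.7 CPM in untreated, 213.6, 249.4 and 248.0 CPM in EGF and 284, 265 and 269 CPM in bleogen pB1 libraries. All treated libraries lay below the untreated ones. The log2 fold change of PHGDH was -0.40 with EGF (SE 0.07, adjusted p = 0.00019, edgeR), below the fold limit, and -0.19 with bleogen pB1 (SE 0.07, adjusted p = 0.11). PSPH, the phosphatase of the last step, had 0.34 with EGF (SE 0.07, adjusted p = 0.00088, edgeR).

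Of 7 other enzymes of amino acid metabolism, ASNS rose with EGF (14.3%, near the 15.1% of all tested genes). With bleogen pB1 CTH and PCK2 fell (28.6%, against 1.26% of all tested genes). ASNS, asparagine synthetase, had 41.9, 42.3 and 55.4 CPM in untreated, 74.3, 72.5 and 72.0 CPM in EGF and 27.2, 45.4 and 37.0 CPM in bleogen pB1 libraries. The EGF libraries were close to each other and above the rest. Its log2 fold change was 0.65 with EGF (SE 0.15, adjusted p = 0.0018, edgeR) and -0.35 with bleogen pB1 (SE 0.15, adjusted p = 0.20), and EGF exceeded bleogen pB1 by 1.00 (SE 0.15, adjusted p = 0.00011).

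PCK2 (gene 5106, chr14:24094053-24110598), the mitochondrial enzyme that makes phosphoenolpyruvate from oxaloacetate, had 56.1, 59.2 and 64.8 CPM in untreated, 41.8, 50.3 and 46.4 CPM in EGF and 41.0, 38.0 and 42.1 CPM in bleogen pB1 libraries. Both treated groups lay below the untreated one. PCK2 fell with bleogen pB1 by 0.57 on the log2 scale (SE 0.08, adjusted p = 0.0018, edgeR). It was called in every alternative but the limit at an absolute log2 fold change of 1. With EGF its log2 fold change was -0.38 (SE 0.08, adjusted p = 0.0012, edgeR), and the direct difference between treatments, 0.19 (SE 0.08, adjusted p = 0.061), did not pass.

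CTH (gene 1491, chr1:70411218-70439851), which makes cysteine from cystathionine, had 33.9, 32.8 and 31.4 CPM in untreated, 32.8, 46.3 and 39.9 CPM in EGF and 22.3, 25.2 and 21.4 CPM in bleogen pB1 libraries. The bleogen pB1 libraries lay below all others, and the EGF range overlapped with the untreated one. CTH fell with bleogen pB1 by 0.51 on the log2 scale (SE 0.11, adjusted p = 0.028, edgeR). This call was lost in 9 of 17 alternatives, among them 5 of the 6 that left out 1 library of these groups (all but bleogen pB1 replicate 2). It was also lost without EGF replicate 3, which shares the fit. EGF exceeded bleogen pB1 by 0.79 (SE 0.11, adjusted p = 7.3e-05, edgeR).

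CBS, which acts before CTH in the same path, shares reads with its near-identical copy CBSL, and its own value is uncertain. Summed over both genes, the level was 33.0, 35.0 and 38.5 CPM in untreated, 31.3, 38.6 and 38.4 CPM in EGF and 29.8, 33.3 and 31.1 CPM in bleogen pB1 libraries, and the groups overlapped. GPT2 (alanine aminotransferase), ALDH18A1 and PYCR1 (both of proline synthesis) had log2 fold changes of 0.46, 0.32 and 0.12 with EGF. Those of GPT2 and ALDH18A1 had adjusted p of 0.0026 and 0.00078 (edgeR), below the fold limit. With bleogen pB1 these values were -0.14, 0.14 and -0.19.

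Of the 9 amino acid transporters, 2 rose with EGF (22.2%) and none fell, against 15.1% and 21.8% of all tested genes. With bleogen pB1 0 were called, against 1.48% of all tested genes. Their log2 fold changes with bleogen pB1 lay between -0.21 for SLC6A9 and 0.12 for SLC7A1. SLC7A11, which imports cystine in exchange for glutamate, had 86.6, 77.6 and 113 CPM in untreated, 176, 179 and 175 CPM in EGF and 64.5, 117 and 85.6 CPM in bleogen pB1 libraries. The EGF libraries agreed closely and lay above the rest, while the untreated and bleogen pB1 libraries overlapped and spread widely. SLC7A11 rose with EGF by a log2 fold change of 0.93 (SE 0.17, adjusted p = 0.00035, edgeR), and the value with bleogen pB1 was -0.05 (SE 0.17). SLC1A5, which imports glutamine and other neutral amino acids, rose by 0.52 (SE 0.08, adjusted p = 0.00011, edgeR), close to the fold limit. Its call was lost in 6 of 17 alternatives. SLC38A1, an importer of glutamine, lay just under the limit at 0.50 (SE 0.06, adjusted p = 8.5e-06, edgeR) and passed it in 7 alternatives.

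SLC7A1 (cationic amino acids), SLC3A2 and SLC7A5 had log2 fold changes of 0.41 (SE 0.06), 0.34 (SE 0.09) and 0.25 (SE 0.07) with EGF, each with an adjusted p of at most 0.05 (edgeR) and below the fold limit. SLC1A4, an exchanger of alanine, serine and cysteine, had 0.12 (SE 0.10, adjusted p = 0.29). SLC38A2, the importer that is induced by amino acid shortage, had 650, 644 and 643 CPM in untreated and 525, 513 and 534 CPM in EGF libraries, with no overlap. Its bleogen pB1 libraries had 680, 591 and 649 CPM and overlapped with the untreated ones. Its log2 fold change was -0.30 (SE 0.06, adjusted p = 0.00065, edgeR), and that of the glycine transporter SLC6A9 was -0.36 (SE 0.09, adjusted p = 0.0030). Both were below the fold limit. XPOT, which exports tRNA from the nucleus, rose with EGF by 0.73 (SE 0.08, adjusted p = 7.8e-06, edgeR) and had 0.10 (SE 0.08) with bleogen pB1.

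The libraries of a group differed among themselves across the members. The median difference of the 35 members from their untreated means, on the log2 scale of CPM with 0.5 added, was -0.03, -0.03 and 0.06 in the untreated libraries. It was 0.31, 0.49 and 0.37 in EGF replicates 1, 2 and 3, and -0.27, -0.01 and -0.08 in bleogen pB1 replicates 1, 2 and 3. Bleogen pB1 replicate 1 had 30 of 35 members below the untreated mean, and replicate 2 had 19. EGF replicate 1 was the lowest EGF library for 27 members, and EGF replicate 2 the highest for 27. Bleogen pB1 replicate 1 was the lowest of its group for 25 members and replicate 2 the highest for 24, and untreated replicate 3 was the highest of its group for 26. The medians of all tested genes in the same libraries lay between -0.02 and 0.01.

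**Figure D3:**
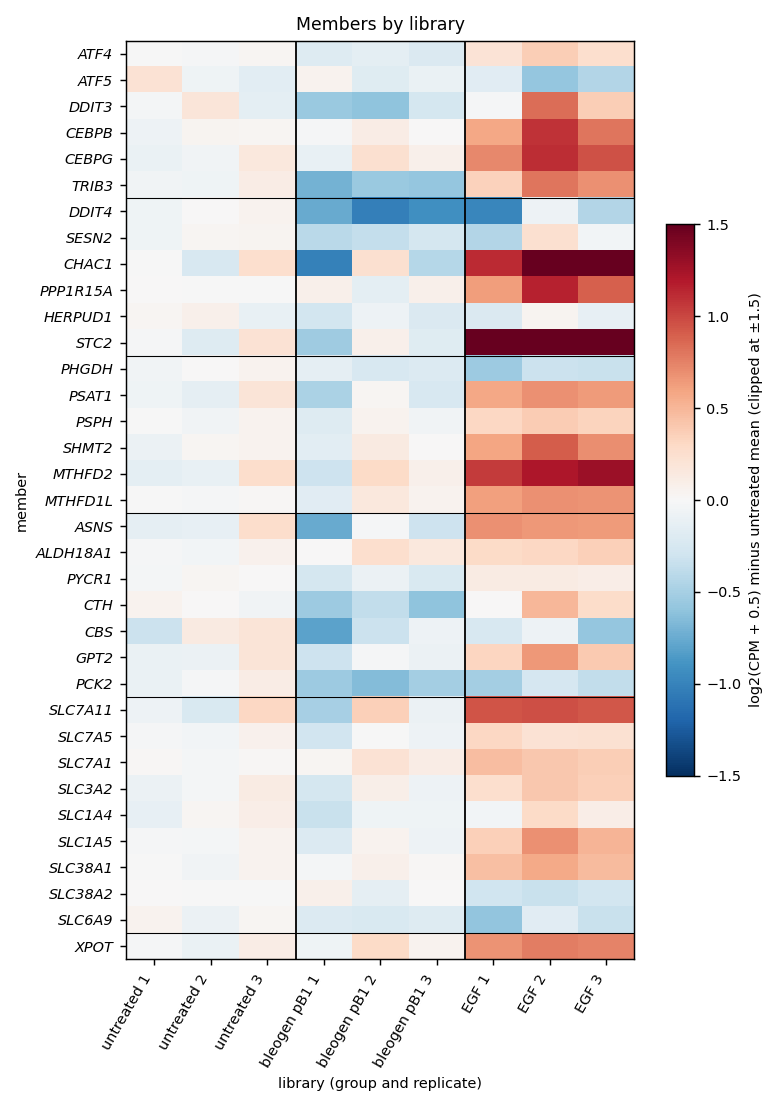
Difference of log2(CPM + 0.5) from the untreated mean (color, clipped at ±1.5) for the 35 tested members (rows, lines between roles) in the 9 libraries (columns). EGF columns are red for most members, blue in all 3 libraries for ATF5, DDIT4, PHGDH, CBS, PCK2, SLC38A2 and SLC6A9, and among bleogen pB1 columns replicate 1 is blue in 30 of 35 rows.

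Genes around the pathway were counted in lists, to be read against all tested genes, of which 15.1% rose and 21.8% fell with EGF (36.9% in either direction) and 1.48% were called in either direction with bleogen pB1. Of 16 tested genes for the kinases of eIF2 and the eIF2 machinery, 3 rose and 1 fell with EGF (25% in either direction, below the share of all genes) and 0 were called with bleogen pB1. The exchange factor subunit EIF2B2 rose by 0.92 (SE 0.08), the eIF2 subunit EIF2S2 by 0.59 (SE 0.08) and PPP1R15B, the constitutive counterpart of PPP1R15A, by 0.50 (SE 0.07) on the log2 scale. EIF2AK2 (PKR), the kinase that senses viral RNA, fell by 0.64 (SE 0.07). The kinases EIF2AK3 (PERK) and EIF2AK4 (GCN2) had 0.13 (SE 0.08) and 0.24 (SE 0.06) with EGF, and only the latter had an adjusted p of at most 0.05 (0.0024, edgeR). The median of the list was 0.24 with EGF and 0.03 with bleogen pB1.

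Genes of the other branches of the ER stress response also rose with EGF. Of 20 tested genes for ER chaperones and the ATF6 and XBP1 branches, 11 rose with EGF and 0 fell, with a median log2 fold change of 0.64. EDEM1, which serves the disposal of misfolded proteins, rose by 1.38 (SE 0.09), the transcription factor XBP1 by 1.11 (SE 0.09) and ERN1 (IRE1), the enzyme that splices its transcript, by 1.03 (SE 0.13), each with an adjusted p of at most 0.05 in edgeR. With bleogen pB1 none of the 20 was called. At an adjusted p of at most 0.05 alone (edgeR), 3 were higher (15%), against 1.56% of all tested genes (4.11% in either direction). They were CALR at 0.35 (SE 0.07), CRELD2 at 0.45 (SE 0.11) and HSPA5 (BiP) at 0.24 (SE 0.06). The median with bleogen pB1 was 0.11, with 15 above 0 and 5 below.

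Of 10 other reported targets of ATF4, 6 were tested. With EGF 1 rose, EIF4EBP1 (an inhibitor of cap-dependent translation) by 0.71 (SE 0.07), and 4 fell. KLHL24, a substrate adaptor of a ubiquitin ligase, fell by 1.90 (SE 0.22) and ATF3, a stress-induced bZIP factor, by 1.60 (SE 0.20). JDP2, a bZIP repressor, fell by 0.64 (SE 0.12) and GTPBP2 by 0.62 (SE 0.08). With bleogen pB1 all 6 had a log2 fold change below 0, with a median of -0.41, and 0 were called by edgeR. ATF3 had 26.9, 27.8 and 23.7 CPM in untreated, 6.30, 10.3 and 9.24 CPM in EGF and 23.6, 13.4 and 17.8 CPM in bleogen pB1 libraries. Both treated groups lay below the untreated one.

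Among 14 tested genes of folate and glycine metabolism outside the members, 3 rose and 2 fell with EGF and 0 were called with bleogen pB1. SLC25A32, the mitochondrial folate carrier, rose by 1.04 (SE 0.10), and AMT, a subunit of the glycine cleavage system, fell by 1.94 (SE 0.34). GLDC, another subunit of that system, had 0, 0 and 1 counts in untreated, 18, 25 and 23 in EGF and 1, 1 and 1 in bleogen pB1 libraries, and its fold change is not given because the untreated libraries lay under the floor of 3 counts. Among 18 tested enzymes of amino acid metabolism outside the members, 2 rose and 7 fell with EGF, and with bleogen pB1 only GLUL fell.

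GLUL, glutamine synthetase, had 423, 471 and 419 CPM in untreated, 137, 145 and 139 CPM in EGF and 373, 244 and 301 CPM in bleogen pB1 libraries. Its groups did not overlap, with EGF the lowest. GLUL fell by 1.64 (SE 0.12, adjusted p = 1.6e-07, edgeR) with EGF and by 0.52 (SE 0.11, adjusted p = 0.028) with bleogen pB1 on the log2 scale. PRODH, the first enzyme of proline breakdown, fell with EGF by 4.29 (SE 0.31, adjusted p = 1.8e-07, edgeR), from 20.4 to 1.05 CPM in the mean of 3 libraries. Among 13 tested amino acid transporters outside the members, 2 rose with EGF, with SLC43A3 at 1.22 (SE 0.10). A fall was called for 4, with SLC7A7 at -1.92 (SE 0.47) and SLC1A3 at -1.63 (SE 0.08). SLC7A7 had only 18, 19 and 22 counts in untreated and 2, 9 and 4 in EGF libraries. EGF replicate 1 was thus under the floor of 3 counts for SLC7A7, and its fold change is imprecise. With bleogen pB1 0 of the 13 were called.

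**Figure D4:**
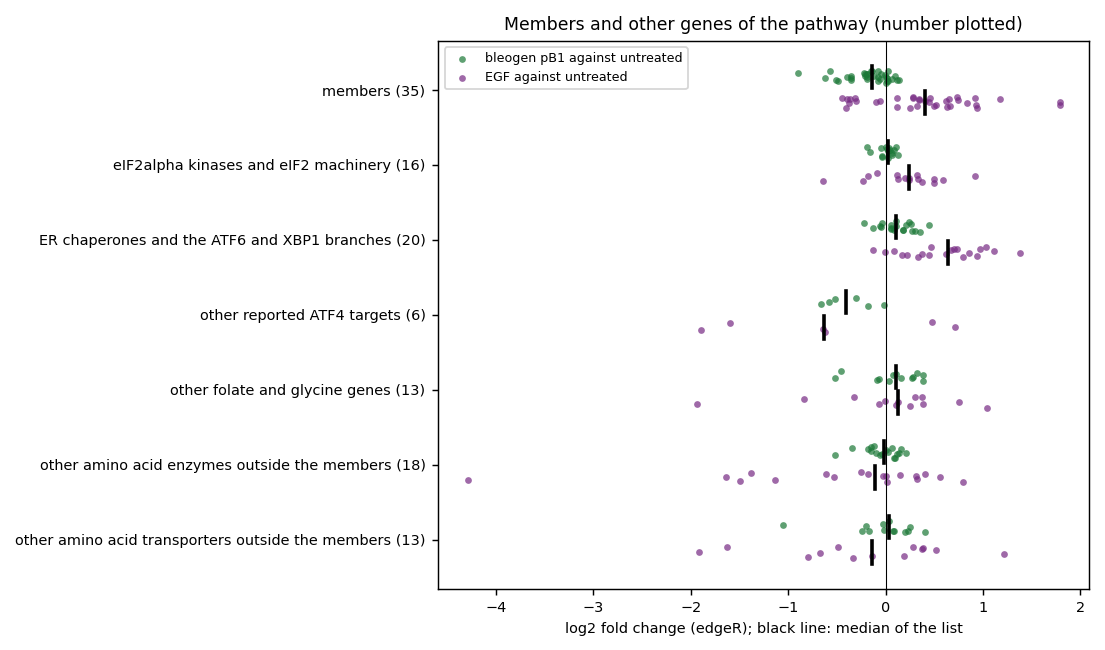
Log2 fold change (horizontal axis, edgeR) of each gene of the members and of 6 further lists under bleogen pB1 (green) and EGF (purple) against untreated, with a black line at the median of the plotted genes and without GLDC, whose untreated libraries lay under the floor. With EGF the medians of the members (0.41), the ER chaperone list (0.64) and the eIF2 list (0.24) lie to the right of 0. Those of the other reported ATF4 targets (-0.63), other amino acid enzymes (-0.1) and other transporters (-0.14) lie to the left. With bleogen pB1 the points lie closer to 0.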

How the data were processed

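The authors had RNA sequenced by BGI and mapped to GRCh38.p12. The program that counted reads is not given in the sources used here. The labels name another extraction kit and sequencing platform than the paper. The authors deposited, for each library, expected counts, which estimate the reads of a gene without any scaling, and FPKM values, in which these counts are divided by gene length and depth. Genes not listed in a library were taken as 0. Each library held 20288417 to 21320994 expected counts.

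After rounding, the counts entered edgeR 4.0.16 under R 4.3.3 (filterByExpr, TMM factors, glmQLFit and glmQLFTest, 9 libraries in 1 fit, 6 residual degrees of freedom, Benjamini-Hochberg adjustment over 12394 genes). Each SE is the size of the log2 fold change over the root of its F statistic. The thresholds follow the study, which used DESeq2. An exact two-sided permutation test of 3 against 3 libraries cannot give a p under 0.1 and was not used for calls. CPM values use TMM-scaled library sizes. Gene coordinates are those of GENCODE 44 on GRCh38. Promoter windows are from RefSeq (GRCh38.p14), searched with Python 3.11.15.

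The members and lists were chosen with earlier results of these data known. All members are named. Values in every library are given for members with an adjusted p of at most 0.05 under bleogen pB1, for members with an absolute log2 fold change of at least 1 under EGF, and for ATF4. DDIT3, SESN2, ASNS, PHGDH, CBS, SLC7A11, SLC38A2, ATF3 and GLUL were added after their values were seen. Of the other lists, up to 3 called genes with the largest change per treatment are named. EIF2AK3, EIF2AK4, PPP1R15B, JDP2, GTPBP2 and the 3 ER genes with an adjusted p of at most 0.05 under bleogen pB1 were added likewise. A gene of these lists is not reported here by name and stays in the fits and the list totals.

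Alternatives were DESeq2 1.42.0, scaling by RLE factors, upper quartiles or library totals, a filter of 10 counts in every library or none, the 6 libraries compared alone, limma 3.58.1 on log2(FPKM + 1) or log2(FPKM + 0.1) for genes that reached an FPKM of 1 in 3 or more libraries, log2(FPKM + 1) with no filter, other limits, a block for the replicate number, and leaving out each library. The tests were tried on simulated data with known changes.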

Additional observations from a re-analysis of the deposited data

How the results depend on the processing

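The counts of members called kept within 1.5 times under most alternatives, and no fold change that was called reversed. With bleogen pB1 the 4 members called lower became 0 at an absolute log2 fold change of at least 1 and 1 (PCK2) in limma on log2(FPKM + 1) with no filter, and 2 to 4 when 1 library was left out. The lowest value, 2, was without bleogen pB1 replicate 3. With EGF the 14 called higher became 24 at adjusted p alone and 3 at the limit of 1. The 0 called lower with EGF became 6 at adjusted p alone, 1 in DESeq2 and with no count filter (NUPR1), 1 with no scaling factors and in limma on log2(FPKM + 1) and log2(FPKM + 0.1) (DDIT4), 2 with upper-quartile factors (ATF5 and DDIT4), 2 in limma with no filter (NUPR1 and DDIT4), and 0 to 2 when 1 library was left out. It was 2 without EGF replicate 1 or EGF replicate 2, 1 without EGF replicate 3 or untreated replicate 1, and 0 without untreated replicates 2 or 3. In the direct comparison the 17 higher with EGF became 27 at adjusted p alone and 4 at the limit of 1. The 0 lower became 3 at adjusted p alone, 1 in DESeq2 and with no count filter, and 1 without any library of either treatment. NUPR1 was tested there because it then passed the filter. The cause of the other changes was not tested.

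Upper-quartile factors moved the median of all tested genes with EGF from -0.013 to -0.118 and the share of calls that were higher from 41.0% to 30.2%. In the direct comparison they moved the share from 37.6% to 28.8%. Relative to that shift 13 members were called higher with EGF. Without bleogen pB1 replicate 1, 436 of all genes were called with bleogen pB1, against 183.

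With the replicate block the counts were 0 higher and 4 lower with bleogen pB1, 14 higher and 0 lower with EGF, and 17 higher and 0 lower in the direct comparison. Same-numbered libraries of bleogen pB1 and untreated cells had deviations that correlated at 0.207, -0.03 and 0.113, so the numbers were not taken as pairs.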
